A study of Mus musculus with 2 samples.

Results

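RNA-Seq of brown preadipocytes (D0) and differentiated brown adipocytes (D7) was examined for the genes of respiratory complex II, complex III, cytochrome c and the mitochondrial ATP synthase. The genes were chosen by symbol alone, and 37 of the 23361 genes with values in the table belonged to them. They comprised 4 subunits of complex II, 9 of complex III, 16 of the ATP synthase and 8 other genes, namely cytochrome c, the ATP synthase inhibitor, 4 assembly factors and 2 genes that carry names like synthase subunits. The data held 1 library per stage and 2 libraries in all, so that cultures of a stage could not be compared with each other and no difference could be tested.

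Both libraries came from interscapular brown adipose tissue of newborn mice, of strain C57BL/6 in the labels and C57BL/6J in the study's methods. Per the labels, cells isolated in DMEM with 20% serum were moved 4 days before induction to a medium that held T3 at 1 nM, insulin at 0.1 μM and 10% serum. From day 0 they received indomethacin (0.125 mM), IBMX (0.5 mM) and dexamethasone (2 μg/ml) for 2 days, and the D7 library was made after further culture without these 3 inducers. The study's methods give other insulin and dexamethasone concentrations and state that the cells were immortalized with large T, whereas the labels name primary cultures, and they name newborn pups of either sex without saying whether cells of several pups were pooled in a library. Values are FPKM, which are fragment counts corrected for transcript length and for the reads of the library, so that levels of different genes can be compared. They were used as deposited. They were relative to about 21471158 fragments at D0 and 18265728 at D7, and the members had between 147 and 75541 fragments each. A gene was called changed at a D7/D0 ratio of at least 2.0 or at most 0.5, the criterion of the study. Intervals in parentheses are exact 95% intervals of the ratio that cover counting error only.

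The respiratory chain passes electrons from nutrients to oxygen and pumps protons out of the mitochondrial matrix. Complex II oxidizes succinate to fumarate as part of the citrate cycle and hands its electrons to ubiquinone, complex III passes them from ubiquinol to cytochrome c, and the ATP synthase lets protons flow back through a ring of c subunits to drive the making of ATP. In brown fat the uncoupling protein UCP1 offers the protons another way back, which releases heat, and the tissue is known for a high content of respiratory chain complexes and a low content of ATP synthase. The mRNA for subunit c comes from several nuclear genes whose proteins differ in the import sequence that is cut off, while the mature subunit is the same.

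The cells carried the markers of their labels in part. All 7 adipocyte markers examined (Fabp4, Adipoq, Plin1, Pparg, Cebpa, Lpl and Cidec) rose by 2.0-fold or more, and their summed FPKM was 81.6 at D0 and 17950 at D7. The brown markers Ucp1, Cidea and Elovl3 were listed at 0 at D0 and summed to 63.2 at D7, of which Ucp1 gave 4.57. Of the 4 preadipocyte markers, Pdgfra had 52.1 FPKM at D0 against 50.7 at D7 and Ly6a 546 and 405, while Dlk1 and Cd34 were higher at D7. All 6 macrophage markers were higher at D7, with a summed FPKM of 140 at D0 and 486 at D7, and none of them was listed at 0. The part of macrophages in the values below was not tested. Summed FPKM of 5 skeletal muscle markers was 45.4 and 2.34, nearly all of it Acta1 at D0, with Ckm listed at 0 in both libraries, and that of 3 endothelial markers was 0.475 and 0.701. In bulk RNA, a larger share of a cell type and more of an mRNA per cell cannot be told apart.

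The results turn on the c subunit genes, the synthase inhibitor and the electron carriers, and the sequences before their starts are shown for that reason. They are the 250 bases before a RefSeq transcript start, 5′ to 3′ on the strand of the gene, from RefSeq on GRCm38.p6, in lower case with matches to the motifs described below in capitals. Atp5g1, Atp5g2 and Atp5g3 encode subunit c, Atpif1 encodes the inhibitor, and Cycs and Sdha carry electrons and had ratios near 5. Uqcrfs1, the electron carrier with the highest ratio, had no match in its window, which is not shown.
Atp5g1: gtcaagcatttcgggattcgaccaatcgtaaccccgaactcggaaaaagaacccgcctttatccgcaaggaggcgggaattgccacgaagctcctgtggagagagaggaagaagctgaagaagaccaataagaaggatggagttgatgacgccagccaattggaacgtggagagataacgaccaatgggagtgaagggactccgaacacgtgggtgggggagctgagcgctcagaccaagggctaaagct
Atp5g2: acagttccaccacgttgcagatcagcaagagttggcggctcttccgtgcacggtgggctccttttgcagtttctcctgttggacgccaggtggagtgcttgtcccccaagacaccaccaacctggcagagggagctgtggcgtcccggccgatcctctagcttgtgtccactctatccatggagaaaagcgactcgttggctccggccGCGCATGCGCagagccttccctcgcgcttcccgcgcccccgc
Atp5g3: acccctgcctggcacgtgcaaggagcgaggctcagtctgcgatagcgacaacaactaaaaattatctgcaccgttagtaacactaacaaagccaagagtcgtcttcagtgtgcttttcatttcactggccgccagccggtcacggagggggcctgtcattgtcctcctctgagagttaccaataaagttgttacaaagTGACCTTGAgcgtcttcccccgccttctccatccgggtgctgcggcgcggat
Atpif1: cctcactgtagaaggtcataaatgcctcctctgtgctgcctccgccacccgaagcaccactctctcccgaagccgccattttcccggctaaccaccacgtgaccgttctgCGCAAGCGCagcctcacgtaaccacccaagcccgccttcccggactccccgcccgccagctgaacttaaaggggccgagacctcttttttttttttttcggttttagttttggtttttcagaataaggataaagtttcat
Cycs: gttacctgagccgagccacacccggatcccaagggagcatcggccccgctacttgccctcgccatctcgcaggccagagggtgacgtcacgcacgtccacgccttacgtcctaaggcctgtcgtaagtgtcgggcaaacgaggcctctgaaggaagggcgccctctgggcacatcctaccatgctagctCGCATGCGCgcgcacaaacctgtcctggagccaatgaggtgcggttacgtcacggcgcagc
Sdha: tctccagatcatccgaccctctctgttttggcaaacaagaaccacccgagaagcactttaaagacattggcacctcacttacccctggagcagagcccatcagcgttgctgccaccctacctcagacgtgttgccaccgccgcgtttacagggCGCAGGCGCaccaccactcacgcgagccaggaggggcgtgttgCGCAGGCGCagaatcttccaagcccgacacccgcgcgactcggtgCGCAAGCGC
The Atp5g1 window lies at chr11:96075632-96075881, that of Atp5g2 at chr15:102671048-102671297, that of Atp5g3 at chr2:73911327-73911576, that of Atpif1 at chr4:132535415-132535664, that of Cycs at chr6:50566570-50566819 and that of Sdha at chr13:74350241-74350490. All 6 genes are on the minus strand. The windows of Atp5g1 and Atpif1 lie partly, and that of Atp5g3 wholly, inside the listed span of the gene, so that for these genes the span holds a more upstream start whose sequence is not shown.

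Of the 37 genes, 24 rose by 2.0-fold or more and 0 fell by as much. Among all 14986 genes above 0 in both libraries, 18.5% were higher by 2.0-fold and 13.2% lower. Among the 6240 of them with a mean FPKM of at least 10, these shares were 13.1% and 9.92%. The median ratio of the 37 genes was 2.28. It was 1.01 for all genes above 0 in both libraries and 0.944 for those with a mean FPKM of at least 10. The genes took 1.37% of the summed FPKM of the table at D0 and 3.23% at D7. At D7, 16 of them stood among the 200 genes with the highest FPKM, and 4 did at D0. The plot of levels shows that the D7 value lay to the right of the D0 value for 35 of the 37 genes.

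**Figure D1:**
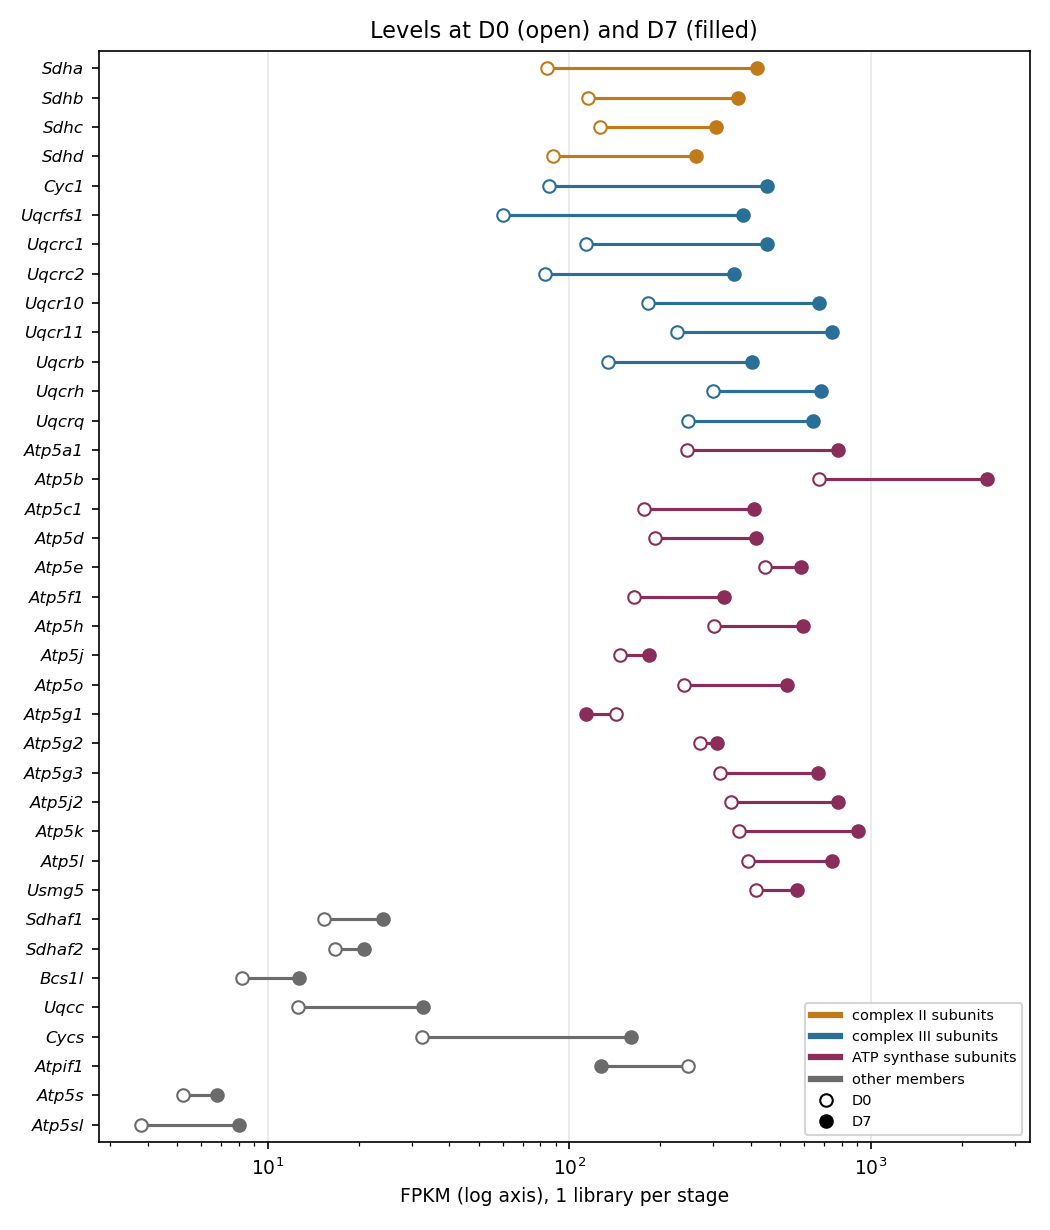
FPKM of the 37 genes at D0 (open points) and D7 (filled points) on a log axis, with 1 library per stage and colours for complex II, complex III, the ATP synthase and other members. Atp5g1 and Atpif1 are the genes whose filled point lies to the left of the open one, and Atp5b reaches 2437 at D7.

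The complexes differed in how far they moved. The 4 complex II subunits had a median ratio of 3.07 and the 9 complex III subunits a median of 3.68, and all 13 of them were above 2.0. The 16 ATP synthase subunits had a median ratio of 2.04, and 8 of them were above 2.0. Without the genes for subunit c, 13 synthase subunits had a median ratio of 2.17, and 7 of them were above 2.0. For comparison, genes of complexes I and IV were taken by symbol alone. The median was 2.39 for 37 genes named like nuclear subunits of complex I, of which 25 reached 2.0-fold. It was 2.64 for 15 of 18 genes named like nuclear subunits of complex IV, those above 0 in both libraries. Of these 15 genes, 12 reached 2.0-fold. Of the 3 genes left out, Cox8b was listed at 0 at D0 and had 253 FPKM at D7. Cox7b2 and Cox8c were listed at 0 in both libraries. The range within the synthase, from 0.790 to 3.62, overlapped with that of complex II, from 2.43 to 4.96, and that of complex III, from 2.28 to 6.29. Genes of a complex are not replicates, and no test of the difference between complexes was made.

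**Figure D2:**
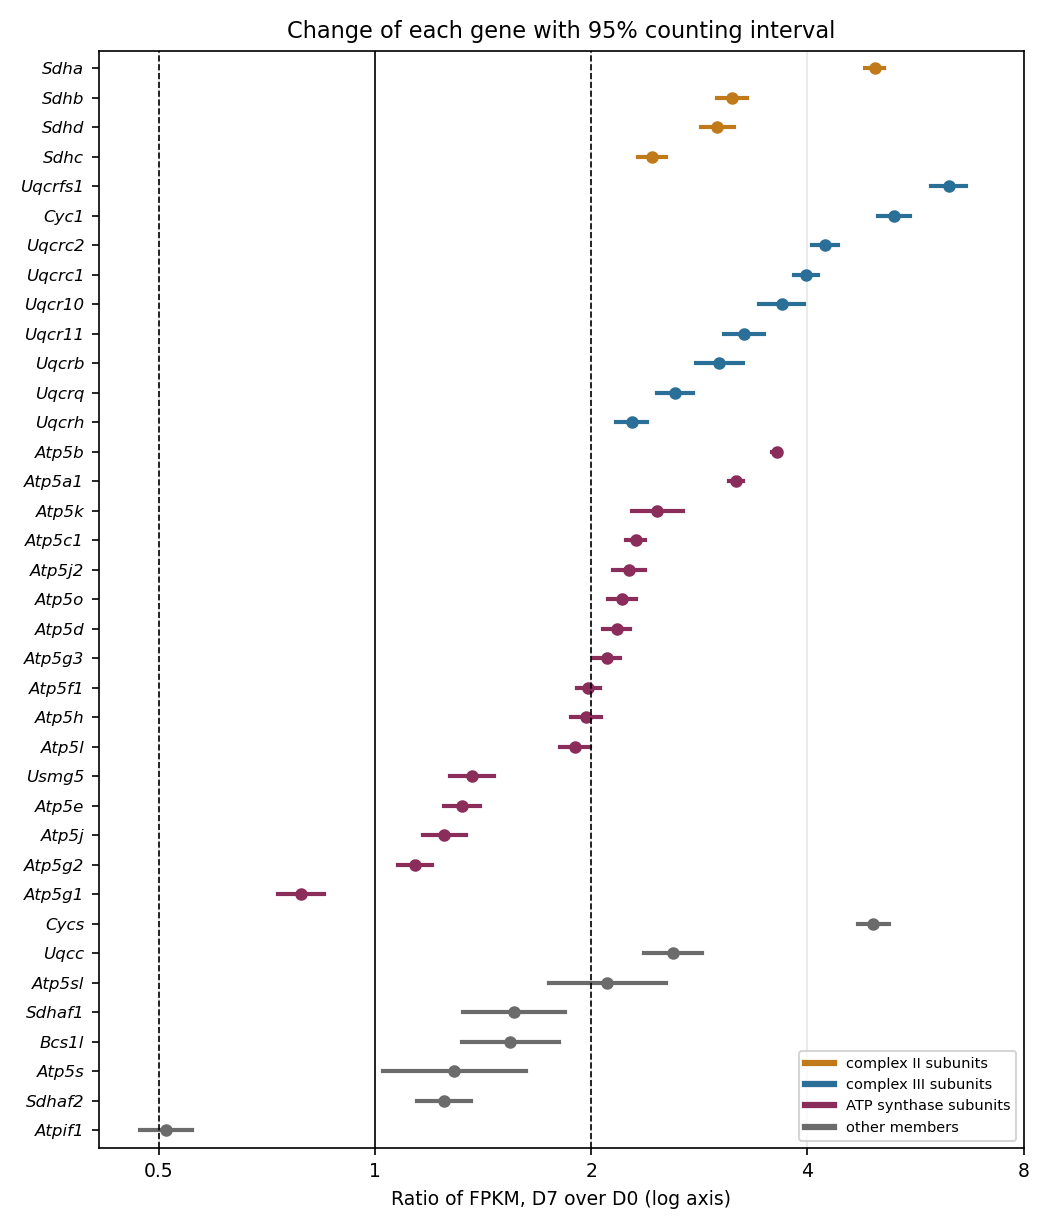
D7/D0 ratio of FPKM for each gene on a log axis, sorted within complex II, complex III, the ATP synthase and other members. Bars are 95% intervals for counting error, the solid line marks a ratio of 1 and dashed lines 0.5 and 2. All complex II and III subunits lie to the right of 2, and 8 of 16 ATP synthase subunits do.

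Complex II has a catalytic head of Sdha, the flavoprotein that binds succinate, and Sdhb, the iron-sulfur protein, and it is anchored in the membrane by Sdhc and Sdhd. Sdha stood at an FPKM of 84.3 in preadipocytes and 418 in adipocytes, a ratio of 4.96 (4.81 to 5.12). Sdhb rose from 115 to 363 (ratio 3.14, 2.99 to 3.30). The anchors rose less than Sdha. Sdhc had 126 FPKM at D0 against 306 at D7 (ratio 2.43, 2.32 to 2.54), and Sdhd of 88.0 and 264 (log2 ratio 1.58, ratio interval 2.84 to 3.16). The level of Sdha relative to Sdhc, the subunits with the highest and the lowest ratio of the complex, was 0.669 at D0 and 1.37 at D7, a change of 2.04-fold (1.93 to 2.16) that does not depend on the scaling between libraries. Thus Sdha had the lowest level of the 4 subunits at D0, though close to that of Sdhd, and the highest at D7.

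Complex II assembly factors stood far below the subunits. Sdhaf1, which helps the iron-sulfur clusters of Sdhb form, stood at an FPKM of 15.4 in preadipocytes and 24.0 in adipocytes (ratio 1.56, 1.32 to 1.84). Sdhaf2, which helps the flavin join Sdha, had an FPKM of 16.7 and 20.8 (ratio 1.25, 1.14 to 1.36). Neither reached 2.0-fold. The table lists the other assembly factors of the complex under older names. Acn9 had 5.40 FPKM at D0 against 12.0 at D7, a ratio of 2.23 whose interval, from 1.52 to 3.31, includes 2. It rested on about 43 fragments at D0 and 81 at D7. 1110058L19Rik had 34.0 and 38.4, a ratio of 1.13 whose interval from 0.971 to 1.31 includes 1.

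Complex III carries its redox centres on cytochrome b, on cytochrome c1 (Cyc1) and on the Rieske iron-sulfur protein (Uqcrfs1). Cytochrome b is encoded in mitochondrial DNA, and no value was found under its symbol mt-Cytb. Uqcrfs1 stood at an FPKM of 60.1 in preadipocytes and 378 in adipocytes, and its ratio of 6.29 (5.94 to 6.65) was the highest of the 37 genes. Cyc1 had 85.5 FPKM at D0 against 452 at D7 (ratio 5.28, 5.02 to 5.55). Both catalytic subunits were above every other subunit of the complex in ratio. Among the core subunits, which face the matrix, Uqcrc1 rose from 114 to 452 (ratio 3.98, 3.83 to 4.13) and Uqcrc2 from 82.8 to 350 (ratio 4.23, 4.06 to 4.41). The ratio of Uqcrc1 to Uqcrc2 was 1.37 at D0 and 1.29 at D7.

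The small subunits of complex III, which carry no redox centre, rose by between 2.28 and 3.68. Uqcr10 stood at an FPKM of 183 in preadipocytes and 673 in adipocytes (ratio 3.68, 3.43 to 3.96), and Uqcr11 of 227 and 741 (ratio 3.26, 3.06 to 3.48). Uqcrb, which lies near the quinone site, had an FPKM of 134 and 404 (ratio 3.02, 2.79 to 3.26). These ratios lay below those of the core and catalytic subunits. Uqcrq had 247 FPKM at D0 against 645 at D7 (ratio 2.61, 2.47 to 2.77). The hinge protein Uqcrh, which helps cytochrome c1 meet cytochrome c, had an FPKM of 300 and 683 (ratio 2.28, 2.17 to 2.39). Uqcrh had the highest level at D0 and the lowest ratio of the complex. The small subunits also had the shorter exon lengths, 434 bp (Uqcr10) to 546 bp (Uqcrh). Those of the core and catalytic subunits ran from 1194 bp (Cyc1) to 1883 bp (Uqcrc2). Whether length had a part in these ratios was not tested.

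The levels of complex III subunits lay closer together at D7 than at D0. The highest was 4.99 times the lowest at D0, with Uqcrh at the top and Uqcrfs1 at the bottom, and 2.11 times the lowest at D7. The SD of log2 FPKM over the 9 subunits was 0.80 at D0 and 0.42 at D7. At D7 all 9 lay within 2-fold of their median, and 7 did at D0. The level of Uqcrfs1 relative to Uqcrh, which had the highest and the lowest ratio of the complex, was 0.200 at D0 and 0.553 at D7, a change of 2.76-fold (2.56 to 2.98). For the ATP synthase the spread was wider at D7, with an SD of 0.64 at D0 and 1.00 at D7. The 4 complex II subunits kept about the same SD, 0.29 at both stages. These are descriptions of 2 libraries, and the SDs are over genes.

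**Figure D3:**
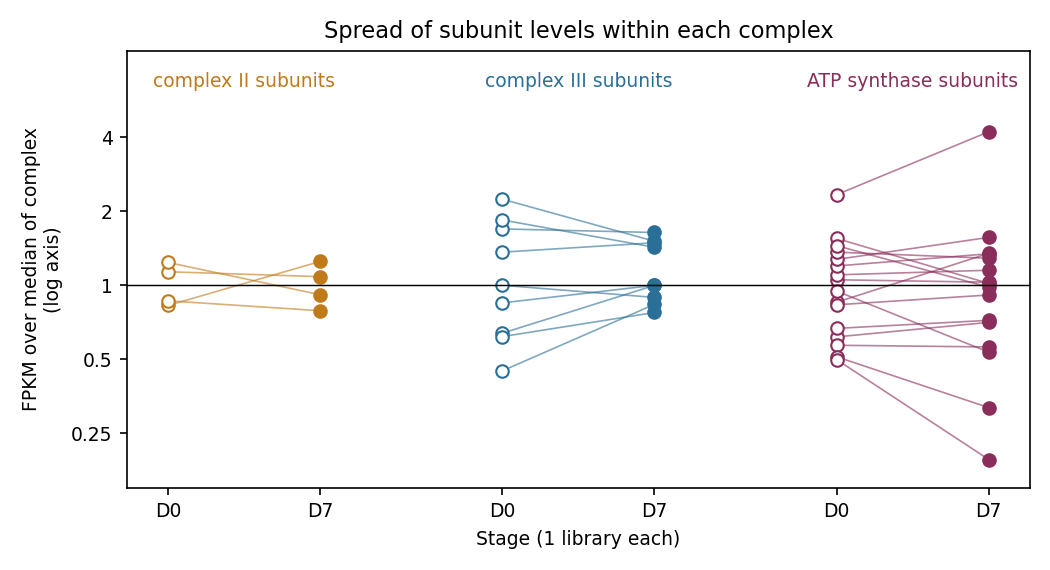
FPKM of each subunit divided by the median of its complex in the same library, on a log axis, for complex II, complex III and the ATP synthase at D0 (open) and D7 (filled), with a line for each gene. The points of complex III draw together, to between 0.775 and 1.64, and those of the ATP synthase move apart, to between 0.196 for Atp5g1 and 4.21 for Atp5b.

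Among the assembly factors of complex III, Uqcc, the chaperone for newly made cytochrome b that is now named Uqcc1, rose from an FPKM of 12.6 to 32.7 (ratio 2.60, 2.37 to 2.86). Bcs1l, the translocase that inserts the Rieske protein, stood at an FPKM of 8.21 in preadipocytes and 12.7 in adipocytes, a ratio of 1.54 (1.32 to 1.80) below 2.0. Of the further factors, Lyrm7, a chaperone of the Rieske protein, had 1.65 FPKM at D0 against 4.66 at D7, a ratio of 2.82 whose interval, from 1.39 to 5.71, includes 2, with 13 fragments at D0 and 30 at D7. Ttc19, which acts late in the assembly of the complex, had 8.70 and 7.32, a ratio of 0.841 (0.742 to 0.954). The intervals of Lyrm7 and Bcs1l overlap.

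Cytochrome c shuttles electrons between complexes III and IV. Its gene Cycs, at chromosome 6 from 50562563 to 50566569, stood at an FPKM of 32.4 in preadipocytes and 160 in adipocytes, a ratio of 4.94 (4.70 to 5.19). The ratio was close to that of Cyc1, its electron donor. The level of Cycs relative to Cyc1 was 0.379 at D0 and 0.354 at D7, a change of 0.935 whose interval from 0.872 to 1.00 includes 1. Hccs, the lyase that attaches heme to cytochrome c, had an FPKM of 12.9 and 17.3, a ratio of 1.34. Pseudogenes with a stretch of at least 90 bp at 95% identity or more are annotated for Cycs (3 of them), so reads may be shared.

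Other enzymes that feed ubiquinol to complex III were higher at D7 in 4 of 5 cases by at least 2.0-fold. Among all genes above 0 in both libraries, 18.5% were. Gpd2, the mitochondrial glycerol phosphate dehydrogenase, had 9.88 FPKM at D0 against 82.5 at D7 (ratio 8.36, 7.86 to 8.89). Etfdh, which takes electrons from fatty acid oxidation, had 23.4 and 106 (ratio 4.53, 4.24 to 4.86). Gpd2 had the higher ratio of the pair. Sqrdl, which oxidizes sulfide, had 10.9 and 55.5. Prodh, which oxidizes proline, had 0.244 and 18.5, from about 11 fragments at D0 and 709 at D7. Dhodh, an enzyme of pyrimidine synthesis, had 5.09 and 9.28, a ratio of 1.82 below 2.0.

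The F1 part of the ATP synthase holds the catalytic head of Atp5a1 and Atp5b, the alpha and beta subunits, and the central stalk of Atp5c1, Atp5d and Atp5e. Atp5b (chromosome 10, 128083307 to 128090388) stood at an FPKM of 672 in preadipocytes and 2437 in adipocytes, a ratio of 3.63 (3.57 to 3.68). Atp5a1 had an FPKM of 245 and 780 (ratio 3.18, 3.11 to 3.25). The head subunits had the highest ratios of the synthase, and Atp5b was at rank 10 of the whole table at D7. Of the central stalk, Atp5c1 (gamma) rose from 177 to 409 (ratio 2.30, 2.23 to 2.38) and Atp5d (delta) from 192 to 417 (ratio 2.17, 2.08 to 2.27). Atp5e (epsilon) had 446 FPKM at D0 against 588 at D7, a ratio of 1.32 (1.25 to 1.40) that did not reach 2.0. Thus the head and the 3 stalk subunits did not move by the same factor.

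The peripheral stalk keeps the head from turning with the ring. Atp5o, the oligomycin sensitivity protein at its top, rose from an FPKM of 239 to 528 (ratio 2.21, 2.11 to 2.31). Atp5f1 (subunit b) had 164 and 325 (ratio 1.98, 1.91 to 2.06), and Atp5h (subunit d) 303 and 595 (ratio 1.97, 1.87 to 2.07). Both were just under 2.0 and their intervals include it, so counting error does not place them on either side. Atp5j, coupling factor 6, stood at an FPKM of 147 in preadipocytes and 184 in adipocytes, a ratio of 1.25 (1.17 to 1.34). The locus listed for Atp5j is shared with Gabpa, which lies next to it in the opposite direction.

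In the membrane, Atp5j2 (subunit f) rose from an FPKM of 345 to 777 (ratio 2.26, 2.14 to 2.38) and Atp5k (subunit e) from 366 to 906 (ratio 2.47, 2.28 to 2.68). Atp5l (subunit g) had 392 and 745, a ratio of 1.90 (1.81 to 1.99) under 2.0. Subunits e and g help synthase dimers to form. Usmg5, a small subunit also called DAPIT, had 417 FPKM at D0 against 568 at D7 (ratio 1.36, 1.27 to 1.46). 2010107E04Rik, a further small protein of the complex, had 261 and 531, a ratio of 2.04 whose interval includes 2. No values were found under mt-Atp6 and mt-Atp8, the symbols of synthase genes in mitochondrial DNA.

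The genes of the c ring had the lowest median ratio of the synthase parts, 1.14, though Atp5g3 reached 2.0-fold in the deposited values. Atp5g1 (ENSMUSG00000006057.15, chromosome 11, 96072793 to 96075694) stood at an FPKM of 143 in preadipocytes and 113 in adipocytes. Its ratio of 0.790 (0.734 to 0.849) was the only one below 1 among the 29 subunits, and it did not reach 0.5. Atp5g2 (ENSMUSG00000062683.11, chromosome 15, 102662868 to 102671047) had an FPKM of 272 and 309, a ratio of 1.14 (1.08 to 1.20), which turned to 0.890 when each library was divided by its median over all rows. Atp5g3 (ENSMUSG00000018770.9, chromosome 2, 73908447 to 73912464) rose from 317 to 666, a ratio of 2.10 (2.01 to 2.19). Its ratio was 1.96 with division by the median of genes above 0 in both libraries, and 1.645 with that over all rows. The 3 genes that encode the same mature protein therefore had different ratios in these 2 libraries. Their intervals, which leave out variation between cultures, do not overlap.

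Shares of the isoforms within a library do not depend on the scaling between libraries. Atp5g1 made up 19.6% of the summed FPKM of the 3 genes at D0 and 10.4% at D7. Atp5g2 made up 37.2% and 28.4%, and Atp5g3 43.3% and 61.2%. The level of Atp5g1 relative to Atp5g3 was 0.452 at D0 and 0.170 at D7, a change of 0.376 (0.345 to 0.409). That of Atp5g2 relative to Atp5g3 was 0.858 and 0.464, a change of 0.541 (0.505 to 0.579). The sum of the isoforms was 732 at D0 and 1088 at D7, 1.49 times higher. The summed c level was 2.42 times the median of the other 13 synthase subunits at D0 and 1.85 times at D7, a change of 0.765. Relative to Atp5b, the subunit with the highest ratio, it was 1.09 at D0 and 0.447 at D7. Atp5e, Atp5j and Usmg5 had lower ratios than the sum. Atp5g1 and Atp5g2 have 2 annotated pseudogenes each with a stretch of at least 90 bp at 95% identity or more, and Atp5g3 has none, so reads may be shared for the former.

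**Figure D4:**
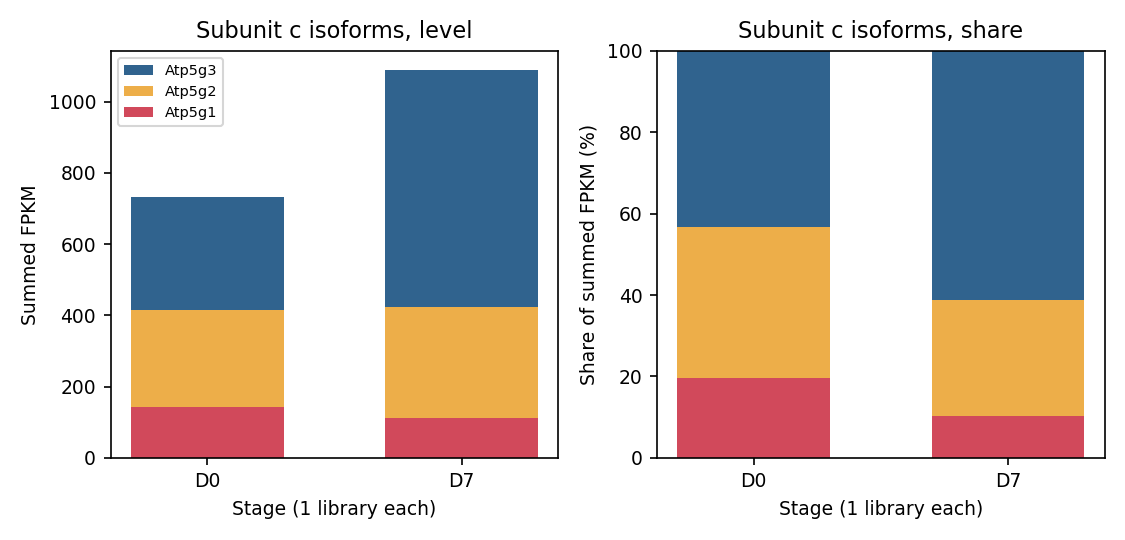
Summed FPKM of the 3 genes for subunit c (left) and their share of it in percent (right) at D0 and D7, with 1 library per stage and no error bars. The sum goes from 732 to 1088, and the share of Atp5g3 from 43.3% to 61.2%.

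Atpif1 encodes the inhibitor that binds the F1 head and blocks ATP hydrolysis when the membrane loses its potential. The gene (ENSMUSG00000054428.12, chromosome 4, 132530555 to 132535450) had 248 FPKM at D0 against 127 at D7, from about 1916 and 827 fragments. Its ratio of 0.512 (0.471 to 0.555) was the lowest of the 37 genes. It lay just above the limit of 0.5, and its interval includes the limit. Division of each library by its median, its upper quartile or its median over all rows brought the ratio under 0.5, the lowest being 0.401. Relative to the median synthase subunit, the level of Atpif1 was 0.863 at D0 and 0.219 at D7, and relative to Atp5b, which had the highest ratio of the synthase, it was 0.369 and 0.0520, a change of 0.141 (0.130 to 0.153).

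On the level scale, the median FPKM of synthase subunits was 287 at D0 and 578 at D7, that of complex III subunits 134 and 452, and that of complex II subunits 102 and 334. The median synthase subunit was thus 2.15 times the median complex III subunit at D0 and 1.28 times at D7. Relative to complex II it was 2.82 times at D0 and 1.73 times at D7. The ratio of complex III to complex II was 1.32 at D0 and 1.35 at D7.

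Among genes that build the synthase, Atpaf2, which assists the alpha subunit, stood at an FPKM of 12.6 in preadipocytes and 45.7 in adipocytes (ratio 3.64, 3.26 to 4.06). Atpaf1, which assists the beta subunit, had 10.1 and 14.7 (ratio 1.45, 1.28 to 1.64). Tmem70, which assists the c ring, had 38.0 and 57.5 (ratio 1.51, 1.40 to 1.63). Of the 3 factors only Atpaf2 reached 2.0-fold. Atp5s and Atp5sl carry names like subunits but are now named Dmac2l and Dmac2 in RefSeq. They had FPKM of 5.24 and 6.76 (ratio 1.29) and of 3.79 and 7.99 (ratio 2.11, 1.75 to 2.54), and stood far below the subunits.

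Some members are uncertain for reasons of counting. Pseudogenes with a stretch of at least 90 bp at 95% identity or more are annotated for 12 of the 37 genes, with up to 9 for Atp5l. The listed locus of 8 genes overlaps another coding gene, and that of Atp5d spans a region of many genes. Whether strand was used in counting is not given in the sources used here. The 5 shortest transcripts, those of Atp5k, Usmg5, Atp5e, Uqcr10 and Uqcr11, have 292 to 436 bp of exons in their locus. Their ratios run from 1.32 to 3.68. The level of such a short transcript depends on the length correction of about 180 bp that the deposited values contain.

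The count of called synthase subunits depended on the scaling. Division of each library by its median over all rows, with values under 0.01 set to 0.01, shifts every log2 ratio by -0.35. Under it, 2 of 16 synthase subunits reached 2.0-fold (Atp5a1 and Atp5b), against 8 of 9 complex III and 3 of 4 complex II subunits. The order of the complexes by median ratio is the same under any such scaling, because it moves all genes by one factor.

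Promoters were listed in RefSeq for 31 of the 37 genes. They were not listed for Sdhc, Cyc1, Uqcrc2, Uqcrb, Uqcrq and Atp5a1. Motifs were searched on both strands in the window from 250 bases before to 50 after the start. NRF1 and GABP are factors known for nuclear genes of the respiratory chain, ERR receptors act with PGC-1 coactivators, and YY1 is a widely expressed factor. The NRF1 letters GCGCNTGCG were found in 17 of 31 genes (54.8%), against 7.12% of the 27025 genes with a promoter in RefSeq, whether or not they had values here, and 17.8% of 4820 genes with a mean FPKM of at least 10. The GABP letters CCGGAAG were found in 13 genes (41.9%), against 9.93% and 22.9%. The ERR letters TNAAGGTCA were found in 2 genes, Sdhd and Atp5g3 (6.45%), against 1.43% and 0.954%. The YY1 letters AAGATGGCG were found in 3 genes (9.68%), against 1.64% and 4.48%.

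Matches were found at both ends of the range of ratios. NRF1 letters were found in 9 of 15 synthase subunits and in 3 of 5 complex III and 2 of 3 complex II subunits with a promoter. In the sequences above, Sdha holds them 97, 54 and 9 bases before the start, Cycs 61 bases before it and Atp5g2 42 and 41 bases before it, as overlapping matches on both strands. Atpif1, the gene with the lowest ratio, also holds them, 140 bases before the start. Atp5g3 holds the ERR letters 52 bases before the start and its NRF1 match lies in the 50 bases after the start, which are not shown. No match to the 4 motifs was found in the windows of 6 genes, among them Atp5g1 with a ratio below 1 and Uqcrfs1 with the highest ratio. A match is a string of letters, and no binding was measured.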

How the data were processed

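RNA-Seq measured mRNA in 1 library of brown preadipocytes (D0) and 1 of brown adipocytes (D7). The authors filtered the reads, removed duplicate and rRNA reads, aligned the rest with SOAP2 to mm10 and to gene sequences, and deposited an FPKM for each gene at each stage (the submitters' processing notes name Bowtie2). Of 27324 rows, 3963 held no value. Ratios of FPKM were taken without a pseudocount or rescaling, and 2.0-fold was the threshold.

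Fragments were recovered using 605 genes made of 1 exon that is 600 bp or longer. With 179 bp (D0) and 182 bp (D7) taken from the length, 100% of the 81 and 88 values of up to 20 fragments lay within 0.1 of a whole number. The members have several exons or transcripts, so their fragments are approximate, from the exons of the named transcript within the deposited locus (GENCODE M21). Intervals are exact Clopper-Pearson intervals of ratios and exact conditional intervals of odds ratios for pairs of genes, for counting error only. No p-value was computed.

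All members are named. The members, lists and motifs were chosen with earlier results of these data known. Alternatives were pseudocounts, 5 rescalings, a filter, summed rows, other thresholds, a mean, and subunits without pseudogenes. The alternatives for the counts per complex, and those for the ratio of Atpif1 to the synthase, were added after seeing the data. Scripts were tested on simulated data. BLAST 2.17.0, scipy 1.17.1, numpy 2.4.6, matplotlib 3.10.9, pandas 2.3.3 and Python 3.11.15 were used.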

Additional observations from a re-analysis of the deposited data

How the results depend on the processing

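Direction held for 34 of 37 genes under all 9 alternatives for single ratios. The exceptions, Sdhaf2, Atp5j and Atp5g2, fell just below 1 (0.977, 0.979 and 0.890) only with division by the library median over all rows. That setting gave median log2 ratios of 1.26 for complex II, 1.53 for complex III and 0.68 for the synthase, 15 genes higher by 2.0-fold and 1 lower (Atpif1), and 2 synthase subunits higher. Division by the median of genes above 0 in both libraries gave medians of 1.52 for complex II and 0.93 for the synthase. It gave 1 lower gene, and so did the upper quartile. A threshold of 4.0-fold left 5 genes higher, 1 of complex II, 3 of complex III and 0 of the synthase, and one of 1.5-fold gave 1 lower gene. The mean in place of the median gave 1.71 for complex II and 0.90 for the synthase. Without subunits that have a pseudogene stretch, the medians were 1.99 for complex III and 1.12 for the synthase. By fragments, Atp5g1 held 23.0% of the c isoforms at D0 and 12.4% at D7, and Atp5g2 34.3% and 26.6%. Geometric means gave a synthase to complex III ratio of 1.98 at D0 and 1.01 at D7, and put Atpif1 at 0.246 of the synthase at D7. No paired analysis was possible because each stage has 1 library, and no library could be left out.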
